A study of Mus musculus with 12 samples.

Results

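The effect of diabetes on the kidney of mice that lack D6 was measured by setting 3 arrays of diabetic D6 knockouts (OVE-D6) against 3 arrays of non-diabetic D6 knockouts (D6). The members of the comparison were the 6 arrays whose source name was OVE-D6 or D6, of 12 in the series, and all probe sets with 1 gene symbol. Those were 21789 of 35556 probe sets, standing for 19936 genes, and 16480 of these were tested, namely those that exceeded the 25th percentile of the array in question on 3 or more arrays. Of the 16480 tested genes, 30 rose and 17 fell in OVE-D6 kidneys at an adjusted p of 0.05 in limma. Genes of fatty acid use, fatty acid hydroxylases of the Cyp4a family and the steroid-binding protein gene Serpina6 were among those that rose. The calcium-sensing receptor gene Casr, the lipid synthesis regulator Srebf1 and the natriuretic peptide receptor gene Npr3 were among those that fell. No macrophage, chemokine, matrix, injury or cell cycle gene of the lists described here passed. Only 0.285% of all tested genes did, so lists of this size could hold none at that share.

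All mice were on the FVB background, were 6 months old and ate standard chow. The D6 group was homozygous for a deletion of D6 (Ackr2) that had been moved from C57BL/6 into FVB over at least 10 generations. The OVE-D6 group carried the same deletion and the OVE26 diabetes trait, which came from a further cross to diabetic OVE mice. The other groups of 3, FVB (non-diabetic) and OVE (diabetic), had intact D6 and are used here for comparison. Both knockout groups share the deletion and any C57BL/6 sequence left around it. OVE26 mice become diabetic because a calmodulin transgene under an insulin promoter damages the pancreatic beta cells, so the diabetes is of insulin-deficient type. Each array held RNA of whole frozen kidney from 1 mouse, with no sex stated. In whole kidney, fewer cells of a type and less RNA per cell cannot be told apart.

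D6 is a scavenging receptor: it takes up inflammatory CC chemokines and has them degraded, and does not signal as other chemokine receptors do. The proximal tubule, the bulk of the kidney cortex, lives largely on fatty acids, which it oxidises in mitochondria and peroxisomes under the control of the nuclear receptor PPAR alpha. In insulin deficiency, free fatty acids rise in blood, glucose is spared in favour of fat, and the tubule has a larger load of glucose, amino acids and ions to reabsorb.

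The 47 called genes were 0.285% of those tested, with 0.182% higher and 0.103% lower. Their fold changes ran from 1.34 to 9.20, and 11 of them changed more than 2-fold, 10 upward and 1, Sec14l3, downward. In all 47 the 3 OVE-D6 values lay on 1 side of the 3 D6 values, which the call on these same values largely fixes. Over all tested genes, 7.72% had every OVE-D6 value above every D6 value and 8.68% had every one below. A positive difference was found in 47.6% of all tested genes. Before adjustment, 1645 genes (9.98%) had p under 0.05 in limma, 788 of them higher (4.78%) and 857 lower (5.2%). The median difference over all tested genes was -0.01 on the log2 scale and the median standard error was 0.10. The values were taken as already normalised, so a shift common to all genes could not be seen here.

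**Figure D1:**
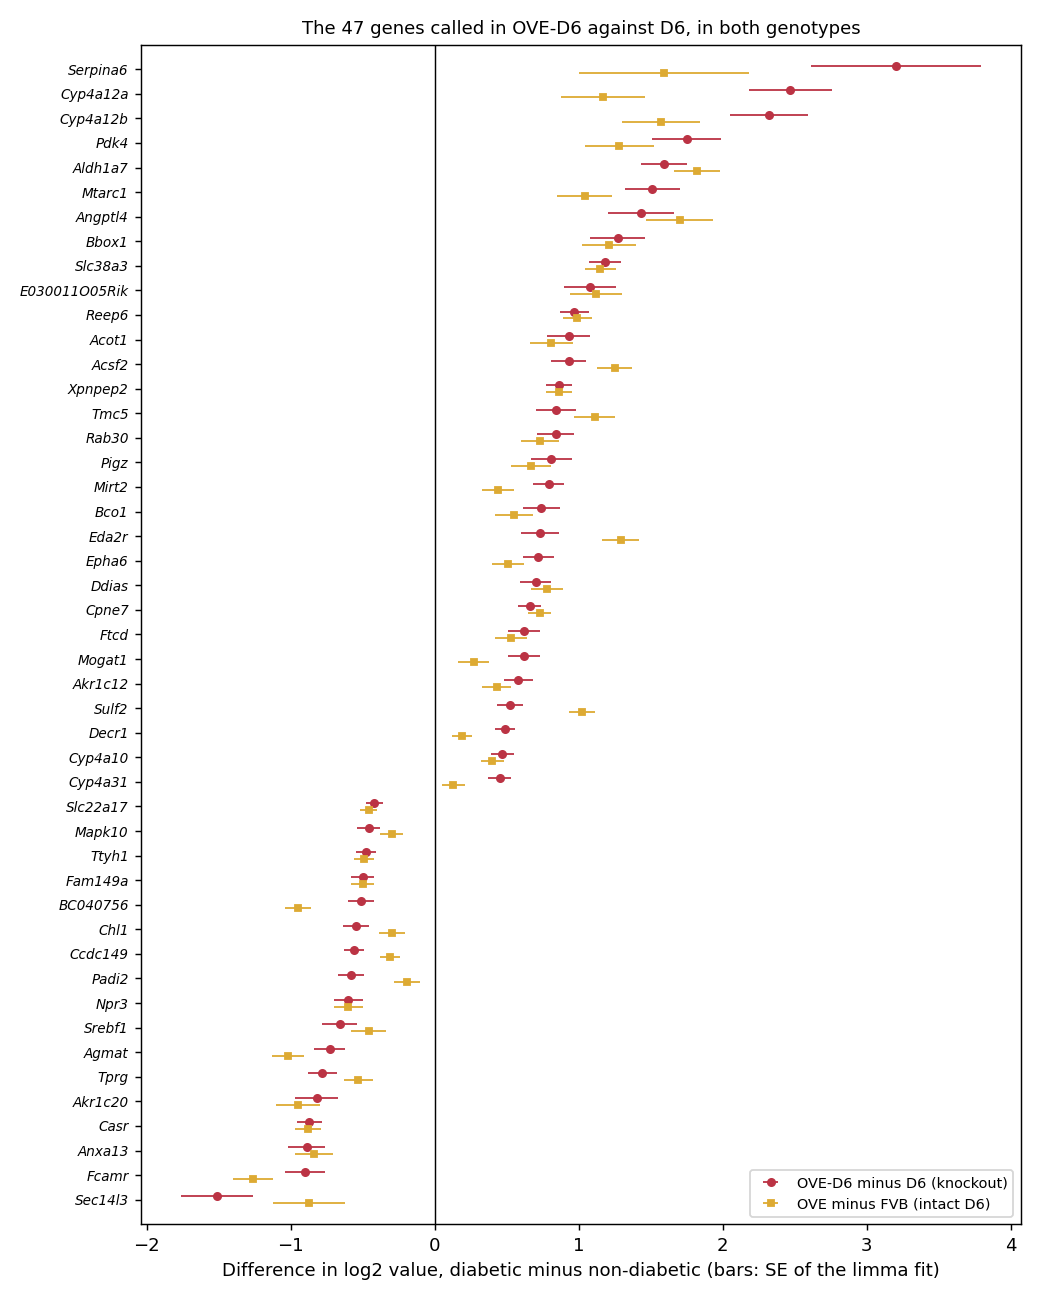
Differences in log2 value for the 47 called genes, diabetic minus non-diabetic, in knockouts (OVE-D6 minus D6, circles) and with intact D6 (OVE minus FVB, squares), with the SE of the limma fit as bars. All 47 genes differed in the same direction in both genotypes, from 3.20 for Serpina6 to -1.51 for Sec14l3 in the knockouts.

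The arrays separated by group and 2 of them stood apart in other ways. On the first principal component of the 6 arrays, which held 34.6% of the variance, D6 lay between -13.5 and -7.53 and OVE-D6 between 4.89 and 16.3. D6 replicate 1 lay at 16.3 on the second component (19.9%), against -11.9 and -5.38 for the other D6 arrays. OVE-D6 replicate 3 carried adrenal transcripts: Cyp11b1, the last enzyme of corticosterone synthesis, read 9.93 there and 5.33 to 5.76 on the other 11 arrays, and Star, which brings cholesterol into steroid-making mitochondria, read 8.87 against 6.08 to 7.07. Fat markers varied from mouse to mouse, with the adipokine gene Adipoq at 6.80, 4.69 and 6.73 in OVE-D6 and at 4.85, 4.88 and 5.70 in D6. Xist, transcribed from the inactive X chromosome, lay between 12.5 and 12.9 on all 12 arrays. The proximal tubule genes Slc34a1 and Lrp2 read 13.1 to 13.9 on the 6 knockout arrays, and the thick ascending limb gene Umod 12.9 to 13.2, so tubule markers stood at high levels. Ackr2 read 6.74, 6.75 and 6.92 in D6 and 6.98, 6.91 and 6.88 in OVE-D6 (adjusted p = 0.692 in limma). Which exons the deletion removes, and whether this probe set covers them, was not known here, so these values check nothing about the labels. Of 70 tested genes beside Ackr2 on chromosome 9, 0 passed in this limma comparison and 9 had an unadjusted p under 0.05. Over all tested genes these shares were 0.285% and 9.98%.

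Pdk4 and Angptl4, both regulators of fuel choice, rose in the diabetic knockouts. Pdk4, the kinase that switches off pyruvate dehydrogenase and so spares glucose, read 8.99, 8.42 and 8.49 in D6 and 10.53, 10.12 and 10.48 in OVE-D6. The lowest OVE-D6 kidney lay more than 1 log2 unit above the highest D6 kidney. Angptl4, a secreted inhibitor of lipoprotein lipase, read 7.29, 6.92 and 7.13 in D6 and 8.54, 8.21 and 8.89 in OVE-D6. Both groups were tight and apart. Pdk4 rose 3.35-fold (log2 1.75 ± 0.24, SE, n = 3 per group, limma adjusted p = 0.00992) and Angptl4 2.70-fold (1.43 ± 0.23, adjusted p = 0.0226).

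Among the called genes were 5 for enzymes that prepare or handle fatty acids, Acsf2, Acot1, Decr1, Bbox1 and Mogat1. They were gathered from the called genes and do not form a list of their own. Acsf2, an acyl-CoA synthetase that activates fatty acids, read 9.22, 9.04 and 8.99 in D6 and 10.15, 9.78 and 10.10 in OVE-D6, a rise of 1.90-fold (0.93 ± 0.12, limma adjusted p = 0.00543). Acot1, a cytosolic thioesterase that releases fatty acids from acyl-CoA, read 7.76, 7.30 and 7.40 against 8.39, 8.41 and 8.43 (1.90-fold, adjusted p = 0.0226). The 3 OVE-D6 values of Acot1 were nearly identical. Its neighbour Acot2, the mitochondrial form, differed by 0.53 ± 0.11 and did not pass (adjusted p = 0.0683), and similar sequences of the Acot genes may share signal. Decr1, which reduces the double bonds of unsaturated fatty acids during oxidation, was 10.05, 10.20 and 10.09 in D6 and 10.5, 10.67 and 10.65 in OVE-D6 (1.40-fold, adjusted p = 0.0179). Bbox1, the last enzyme of carnitine synthesis, went from 6.47, 6.34 and 6.72 to 8.16, 7.37 and 7.81 (2.41-fold, adjusted p = 0.0158). Carnitine carries long fatty acids into mitochondria. Mogat1, which adds a fatty acid to monoacylglycerol, was 8.98, 8.82 and 8.72 in D6 and 9.73, 9.41 and 9.24 in OVE-D6 (1.54-fold, adjusted p = 0.0439). The call of Mogat1 was among the least stable, and it held in 9 of 23 alternative analyses.

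Of 24 tested fatty acid oxidation enzymes, Decr1 alone passed, 22 had a positive difference and 17 had all OVE-D6 values above all D6 values, which is 70.8% beside 7.72% of all tested genes. The median difference of the 24 was 0.20, beside -0.01 for all tested genes. Those nearest to passing included Eci1, an isomerase of unsaturated fatty acid oxidation, at 0.48 ± 0.09 (limma adjusted p = 0.0651), and Cpt2, the inner membrane carnitine acyltransferase, at 0.43 ± 0.08 (adjusted p = 0.0609). The carnitine carrier gene Slc25a20 differed by 0.46 ± 0.09 (adjusted p = 0.0737). Averaged over the 24 genes and set against the D6 mean, the 3 OVE-D6 arrays lay at 0.29, 0.23 and 0.24 and the D6 arrays between -0.02 and 0.02. In mice with intact D6 the same average was 0.07 to 0.11 in FVB and 0.21, -0.002 and 0.14 in OVE, with groups that overlapped. All 3 FVB arrays lay above all 3 D6 arrays in this average, so the non-diabetic groups were not at the same level. Of 29 tested PPAR targets outside oxidation, 26 had a positive difference (89.7%, beside 47.6% of all tested genes), with a median of 0.33. Of the 29, 3 rose, beside 0.182% of all tested genes. Those 3 were Pdk4, Angptl4 and Acot1. Vnn1, a pantetheinase gene, differed by 0.68 ± 0.14 (adjusted p = 0.0830) and the peroxisome division gene Pex11a by 0.41 ± 0.10 (adjusted p = 0.145).

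Fat cells express some of the same genes, so markers of fat tissue are given beside these values. Of 13 tested fat markers 0 passed in this limma comparison, 4 (all higher) had an unadjusted p under 0.05 and 11 had a positive difference, with a median of 0.40. Over all tested genes 0.285% passed, 4.78% were higher with an unadjusted p under 0.05 and 47.6% had a positive difference. The fat marker average was 0.82, -0.35 and 0.58 on the 3 OVE-D6 arrays and -0.19 to 0.26 on the D6 arrays. OVE-D6 replicate 2, lowest in fat markers, lay at 0.23 in fatty acid oxidation enzymes, beside 0.29 and 0.24 for the others. The part of fat tissue in the rises of Pdk4, Angptl4 and Acot1 was not tested. The PPAR targets outside oxidation, a list that holds these 3 genes, averaged 0.47, 0.29 and 0.41 on the OVE-D6 arrays, in the same order as the fat markers. On the FVB arrays the fat markers averaged -0.65, 1.31 and 0.67 and the PPAR targets 0.06, 0.21 and 0.12, again in the same order, while the oxidation enzymes lay between 0.07 and 0.11. On the D6 and OVE arrays the order of the PPAR targets was not that of the fat markers.

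**Figure D2:**
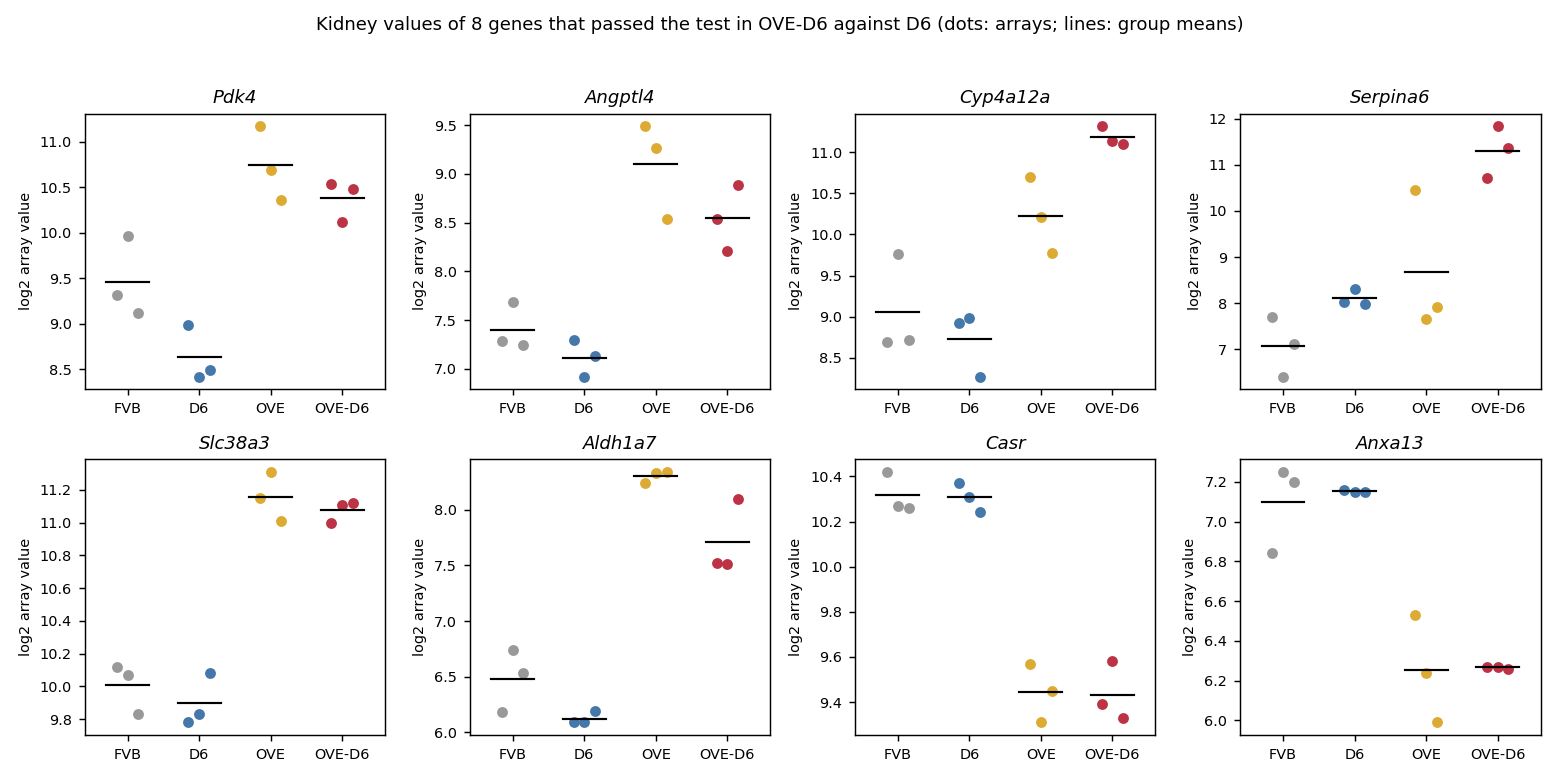
Log2 values of 8 genes on the 12 arrays, by group, each point 1 mouse. Pdk4, Angptl4, Cyp4a12a, Serpina6, Slc38a3 and Aldh1a7 were higher in all 3 OVE-D6 kidneys than in all 3 D6 kidneys, and Casr and Anxa13 lower.

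Promoter sequences are shown for 3 genes that rose and are tied to fatty acid or retinoid use, as the stretch of 250 bases before the RefSeq gene start (GRCm38.p6), 5' to 3' on the gene's strand. PPAR binds direct repeats of AGGTCA with 1 base between them, and capitals mark such a repeat. Pdk4 lies on the minus strand at chr6:5496279-5496528, Acot1 on the plus strand at chr12:84009252-84009501 and Bco1 on the plus strand at chr8:117095615-117095864.
Pdk4: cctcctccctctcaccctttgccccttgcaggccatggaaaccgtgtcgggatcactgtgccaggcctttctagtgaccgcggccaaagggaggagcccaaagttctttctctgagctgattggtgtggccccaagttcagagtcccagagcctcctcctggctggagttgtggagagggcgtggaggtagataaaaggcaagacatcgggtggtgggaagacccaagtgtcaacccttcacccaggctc
Acot1: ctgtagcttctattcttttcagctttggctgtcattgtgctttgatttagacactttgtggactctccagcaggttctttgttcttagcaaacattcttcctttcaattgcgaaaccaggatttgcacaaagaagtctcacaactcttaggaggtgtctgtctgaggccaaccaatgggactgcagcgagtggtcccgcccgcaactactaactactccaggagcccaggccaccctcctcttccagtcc
Bco1: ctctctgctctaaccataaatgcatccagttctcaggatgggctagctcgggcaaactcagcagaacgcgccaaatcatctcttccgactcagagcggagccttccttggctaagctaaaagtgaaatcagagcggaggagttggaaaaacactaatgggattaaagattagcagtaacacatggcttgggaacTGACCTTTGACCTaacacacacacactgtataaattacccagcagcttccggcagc
The repeat AGGTCANAGGTCA, read on both strands, stood in the Bco1 stretch on the reverse strand, from 56 to 44 bases before the start. It stood in 13 of 32851 promoter windows (0.0396%). The counts searched each window in full, which may extend past the 250 bases shown. A promoter was at hand for 17 of the 30 genes that rose, and Bco1 alone among them had the repeat. None of the 15 genes that fell and had a promoter held it, nor did any of the 47 genes with a promoter from the lists of fatty acid oxidation enzymes and PPAR targets. The looser repeat AGGNCANAGGNCA stood in 0.381% of all windows, in Bco1 alone among the genes that rose, in BC040756 among those that fell and in Fabp1 among those lists. A match is a description of letters and not a binding site, and these windows do not hold distant elements. Bco1, the enzyme that splits beta-carotene into retinal, read 6.90, 7.27 and 7.36 in D6 and 7.97, 7.84 and 7.95 in OVE-D6 (1.67-fold, 0.74 ± 0.13, limma adjusted p = 0.0346).

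The Cyp4a enzymes, which hydroxylate fatty acids at the far end of the chain and make 20-HETE from arachidonic acid, included the largest rises after that of Serpina6. Cyp4a12a read 8.92, 8.98 and 8.27 in D6 and 11.32, 11.14 and 11.10 in OVE-D6. Cyp4a12b read 8.71, 8.45 and 8.13 against 10.68, 10.62 and 10.95. All OVE-D6 kidneys lay about 2 log2 units above the D6 kidneys for both genes. Cyp4a12a rose 5.53-fold (2.47 ± 0.29, SE, n = 3 per group, limma adjusted p = 0.00393) and Cyp4a12b 4.99-fold (2.32 ± 0.27, adjusted p = 0.00393). These neighbours are nearly identical in sequence, so their probe sets may report partly the same transcripts. Cyp4a10 and Cyp4a31, also near-identical, were the highest-reading members, at 12.5 to 12.7 in D6 and 12.9 to 13.2 in OVE-D6, and rose 1.38-fold and 1.37-fold (adjusted p = 0.0302 and 0.0337). Cyp4a14 differed by 0.59 ± 0.12 and did not pass (adjusted p = 0.0722). Of 11 tested Cyp4 genes, 4 rose, 0 fell and 6 had a positive difference (54.5%, beside 47.6% of all tested genes). Over all tested genes 0.182% rose and 0.103% fell. The Cyp4f member Cyp4f14 differed by -0.46 ± 0.19 (adjusted p = 0.431).

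Cyp4a12a and Cyp4a12b are male-biased in mouse kidney, so other sex-biased genes are given beside them. Of 15 tested male-biased kidney genes, these were the only 2 that passed, beside 0.285% of all tested genes. A positive difference was found in 8 of the 15 (53.3%, beside 47.6% of all tested genes). Kap, an androgen-driven proximal tubule gene, read 13.33, 13.33 and 13.49 in D6 and 11.81, 12.80 and 11.45 in OVE-D6, which is the other direction (log2 -1.37 ± 0.28, limma adjusted p = 0.0738). Acsm3 differed by 1.10 ± 0.27 (adjusted p = 0.143) and Cyp2e1 by 0.86 ± 0.25 (adjusted p = 0.217), so the male-biased genes had differences of both signs. Of 11 tested female-biased genes, 0 passed in limma and 1 had an unadjusted p under 0.05. The Y-linked genes Eif2s3y, Kdm5d and Uty read below 5.93 on all 12 arrays. That level, used here as a mark of unexpressed genes, was the 95th percentile of 1027 genes for olfactory receptors. With Xist at 12.5 to 12.9 and these Y-linked genes low, all 12 arrays read as female, though the labels state no sex.

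Genes of lipid synthesis leaned downward. Srebf1, the transcription factor that drives fatty acid synthesis genes, read 8.94, 8.78 and 8.67 in D6 and 8.11, 8.09 and 8.22 in OVE-D6 and fell 1.58-fold (-0.66 ± 0.12, limma adjusted p = 0.0346). It passed in 12 of 23 alternative analyses. Of 23 tested genes of cholesterol and fatty acid synthesis, Srebf1 alone passed and 6 had a positive difference (26.1%, beside 47.6% of all tested genes). All OVE-D6 values lay below all D6 values in 9 of them (39.1%, beside 8.68%) and above in 1 (4.35%, beside 7.72%). The median was -0.19. The desaturase genes Scd1 and Scd2, which make monounsaturated fatty acids, differed by -0.49 ± 0.12 and -0.64 ± 0.15 (adjusted p = 0.146 and 0.123), and the sterol sensor gene Insig1 by -0.39 ± 0.12 (adjusted p = 0.267).

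Serpina6, which encodes corticosteroid-binding globulin, the carrier of corticosterone in blood, showed the largest difference of all tested genes. It read 8.03, 8.31 and 7.98 in D6 and 10.72, 11.84 and 11.37 in OVE-D6, so that every diabetic knockout lay at least 2 log2 units above every non-diabetic one. The rise was 9.20-fold (3.20 ± 0.59, SE, n = 3 per group, limma adjusted p = 0.0460). With intact D6 the values were 7.69, 6.41 and 7.12 in FVB and 10.45, 7.65 and 7.91 in OVE, and OVE replicate 1 alone came near the OVE-D6 range. The spread of the OVE arrays entered the shared variance, and with only the OVE-D6 and D6 arrays in the fit the adjusted p was 0.00198. Over 23 alternatives it ranged from 0.00198 to 0.199 and passed in 10. Serpina6 was highest on OVE-D6 replicate 2, while adrenal transcripts were high on OVE-D6 replicate 3. Among the OVE arrays, replicate 1 was highest both in Serpina6 and in the adrenal marker average, which was 0.144, -0.085 and -0.136. The part of adrenal tissue in the Serpina6 values was not tested. Of 22 tested genes of glucocorticoid binding and response, Serpina6 was the 1 that passed and 13 had a positive difference (59.1%, beside 47.6% of all tested genes). All OVE-D6 values lay above all D6 values in 4 of them (18.2%, beside 7.72%) and below in 3 (13.6%, beside 8.68%).

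Aldehyde and steroid-reducing enzymes changed in both directions. Aldh1a7, an aldehyde dehydrogenase, read 6.09, 6.09 and 6.19 in D6 and 7.52, 7.51 and 8.10 in OVE-D6 and rose 3.01-fold (1.59 ± 0.16, limma adjusted p = 0.00147). Its close relative Aldh1a1, a retinal dehydrogenase, read 8.09, 8.02 and 8.19 against 9.24, 9.12 and 9.59 and narrowly missed the threshold (1.22 ± 0.23, adjusted p = 0.0574). The genes are similar enough for probes to share signal. Akr1c20, an aldo-keto reductase of the steroid-converting family, fell 1.77-fold from 7.41, 7.47 and 7.35 to 6.44, 6.56 and 6.76 (-0.82 ± 0.15, adjusted p = 0.0380). Akr1c12 of the same cluster rose 1.5-fold from a level near that of unexpressed genes (adjusted p = 0.0421), and its call held in 11 alternatives. Of 35 tested aldehyde, retinal and keto-reductase genes, 4 passed, Aldh1a7, Mtarc1 and Akr1c12 upward and Akr1c20 downward. Over all tested genes 0.285% passed. Mtarc1, a mitochondrial amidoxime-reducing enzyme, read 7.09, 6.99 and 6.92 in D6 and 9.0, 8.31 and 8.21 in OVE-D6 (2.84-fold, 1.51 ± 0.19, adjusted p = 0.00513).

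Among genes of amino acid handling, Slc38a3, the glutamine transporter SNAT3 that feeds renal ammonia production, read 9.78, 9.83 and 10.08 in D6 and 11, 11.11 and 11.12 in OVE-D6. The OVE-D6 values lay close together and wholly above the D6 range. It rose 2.26-fold (1.18 ± 0.11, limma adjusted p = 0.00147). Xpnpep2, a membrane aminopeptidase that cleaves before proline, read 8.81, 8.51 and 8.69 against 9.59, 9.48 and 9.54 (1.82-fold, adjusted p = 0.00147). Ftcd, which joins histidine breakdown to folate, rose 1.54-fold (adjusted p = 0.0326). Agmat, annotated as agmatinase, fell 1.66-fold from 8.98, 8.98 and 9.24 to 8.19, 8.38 and 8.43 (adjusted p = 0.0142). Gpt, alanine aminotransferase, differed by 0.79 ± 0.16 and did not pass (adjusted p = 0.0701). Of 27 tested amino acid transporters Slc38a3 alone passed, and 20 had a positive difference (74.1%, beside 47.6% of all tested genes). Over a list of 42 tested amino acid breakdown genes, which holds neither Ftcd nor Agmat, the median was -0.02, 0 passed in limma and 2 higher and 3 lower ones had an unadjusted p under 0.05.

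Ion sensing and hormone receptors were among the genes that fell. Casr, the calcium-sensing receptor of the thick ascending limb, read 10.37, 10.31 and 10.24 in D6 and 9.39, 9.58 and 9.33 in OVE-D6 and fell 1.83-fold (-0.87 ± 0.09, limma adjusted p = 0.00147). The groups were well apart. Npr3, the clearance receptor for natriuretic peptides and a podocyte gene, read 9.01, 9.12 and 8.95 against 8.55, 8.42 and 8.31 (1.52-fold lower, adjusted p = 0.0288). Anxa13, an annexin of epithelial membranes, stood at 7.15 to 7.16 on the 3 D6 arrays and at 6.26 to 6.27 on the 3 OVE-D6 arrays (1.85-fold lower, adjusted p = 0.0142). Slc22a17, a receptor for lipocalin-2, went from 8.88, 8.94 and 8.90 to 8.47, 8.48 and 8.50 (1.34-fold lower, adjusted p = 0.0156). Of 25 tested genes of calcium, phosphate and vitamin D, Casr alone passed. Cyp27b1, which activates vitamin D, read 7.51, 7.09 and 7.07 in D6 and 8.32, 7.44 and 8.21 in OVE-D6, with overlapping groups (0.77 ± 0.23, adjusted p = 0.245). Among 18 tested markers of the loop and distal tubule, 0 passed in limma and 2 (both lower) had an unadjusted p under 0.05. Of these 18, 4 had a positive difference (22.2%, beside 47.6% of all tested genes) and the median was -0.14. Egf, the growth factor precursor of the distal tubule, had the most negative difference, at -0.54 ± 0.12 (adjusted p = 0.0988).

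Other genes that fell were Sec14l3, of a family of lipid-binding proteins, and Fcamr, an Fc receptor for IgA and IgM. Sec14l3 read 7.89, 7.96 and 8.19 in D6 and 6.31, 7.02 and 6.18 in OVE-D6 (2.84-fold lower, -1.51 ± 0.25, limma adjusted p = 0.0302). Fcamr read 7.76, 7.41 and 7.68 against 6.97, 6.65 and 6.52 (1.86-fold lower, adjusted p = 0.0179). Padi2, which converts arginine to citrulline in proteins, Ttyh1, of a family of membrane proteins linked to chloride channels, and the less studied genes Ccdc149, Fam149a and BC040756 fell between 1.40-fold and 1.5-fold. The kinase gene Mapk10, the adhesion gene Chl1 and Tprg also fell, and their OVE-D6 means lay below the olfactory receptor level of 5.93. Little or no transcript may be measured there. For Chl1 the D6 mean, 5.5, lay below that level as well.

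Among the remaining genes that rose, Reep6, a membrane-shaping protein of the endoplasmic reticulum, read 11.24, 11.07 and 11.01 in D6 and 12.14, 11.88 and 12.22 in OVE-D6 (1.96-fold, 0.97 ± 0.10, limma adjusted p = 0.00147). Rab30, a small GTPase of the Golgi, rose 1.79-fold, and Pigz, a mannosyltransferase of membrane anchors, 1.76-fold. Cpne7, a calcium-dependent lipid-binding protein, rose 1.58-fold and Sulf2, which trims sulfate from heparan sulfate outside the cell, 1.43-fold. The non-coding RNA Mirt2 rose 1.73-fold and E030011O05Rik 2.12-fold. Tmc5, Eda2r, Epha6 and Ddias rose between 1.62-fold and 1.79-fold from D6 means below the olfactory receptor level. The OVE-D6 mean of Epha6, 5.82, lay below that level too, so little or no transcript may be measured for it. Eda2r, a TNF receptor family member induced by p53, read 5.45, 5.50 and 5.52 in D6 and 6.26, 6.12 and 6.27 in OVE-D6 (adjusted p = 0.0346). Of 18 other tested cell cycle inhibitors and p53 targets, 0 passed in limma and the median was 0.12. Among these 18, 6 had an unadjusted p under 0.05, all higher, beside 4.78% of all tested genes. Phlda3, another p53 target, differed by 0.70 ± 0.14 (adjusted p = 0.0806).

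Inflammation and scarring genes did not pass in the knockouts. Only 0.285% of all tested genes passed there, so a count of 0 in lists of this size is near that share. Of 27 tested macrophage and monocyte markers, 0 rose, 0 fell, 2 (both lower) had an unadjusted p under 0.05 in limma, 6 had a positive difference and the median was -0.13, beside -0.01 for all tested genes. The macrophage surface marker Adgre1 read 7.26, 7.58 and 6.70 in D6 and 6.70, 6.56 and 6.59 in OVE-D6, with all 3 diabetic knockouts at or below the lowest non-diabetic one (-0.56 ± 0.32, limma adjusted p = 0.607). Lyz2, lysozyme of myeloid cells, read 9.29, 9.86 and 9.63 against 9.46, 9.51 and 9.89 (0.03 ± 0.34). In mice with intact D6, Lyz2 was 8.47 to 9.08 in FVB and 10.53 to 12.15 in OVE, 2.78 ± 0.34 higher, and the limma adjusted p was 0.00155. There 22 of the 27 markers rose, in a comparison that called 7.28% of all tested genes (4.90% higher and 2.38% lower). All 9 tested MHC class II genes had a negative difference in the knockouts, with a median of -0.28, 0 passed in limma and 1 (lower) had an unadjusted p under 0.05. Over all tested genes 47.6% had a positive difference. The MHC class II average was 0.232, 0.063 and -0.295 on the D6 arrays and -0.426, -0.279 and -0.349 on the OVE-D6 arrays, so the groups overlapped. Cd74, the invariant chain of MHC class II, read 11.36, 10.78 and 10.08 in D6 and 10.04, 10.14 and 10.14 in OVE-D6 (adjusted p = 0.677).

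None of the CC chemokines that D6 scavenges passed between the knockout groups, where 0.285% of all tested genes passed. Ccl2, the main attractant of monocytes, read 6.36, 6.37 and 6.05 in D6 and 6.5, 6.67 and 6.18 in OVE-D6 (0.19 ± 0.32, limma adjusted p = 0.898), and the groups overlapped. Ccl5, an attractant of T cells and monocytes, read 7.97, 8.28 and 7.71 against 8.20, 8.21 and 7.60 (0.01 ± 0.27). Ccl22, which attracts T cells through CCR4, had the largest difference, -0.47 ± 0.13, from 6.18, 6.35 and 6.07 to 5.64, 5.78 and 5.77 (adjusted p = 0.210). All 8 tested members lay between -0.47 and 0.24, 4 had a positive difference, the median was -0.01, 0 passed in limma and 1 (lower) had an unadjusted p under 0.05. With intact D6, 5 of the 8 rose, in a comparison where 4.90% of all tested genes rose. Ccl2 was 1.91 ± 0.32 higher in OVE than in FVB (limma adjusted p = 0.00674). The average of the 8 was -0.303, -0.135 and -0.258 on the FVB arrays and -0.075 to 0.049 on the D6 arrays. The non-diabetic groups were thus not at the same level. On the OVE arrays that average was 0.349, 1.031 and 0.274, and on the OVE-D6 arrays -0.115 to 0.058.

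Matrix, injury and proliferation genes leaned upward in the knockouts without passing. Over all tested genes 47.6% had a positive difference. An unadjusted p under 0.05 in limma was reached by 4.78% as higher and 5.2% as lower. Of 42 tested matrix genes 31 had a positive difference, with a median of 0.07, and Col12a1, a fibril-associated collagen, led at 0.88 ± 0.22 (7.73, 7.52 and 7.62 in D6 and 8.19, 8.23 and 9.07 in OVE-D6, limma adjusted p = 0.141). An unadjusted p under 0.05 was reached by 3 higher and 1 lower of them. Of 28 tubular injury markers 23 were positive, with a median of 0.18 and 2 higher and 1 lower with an unadjusted p under 0.05. Of 31 cell cycle genes 25 were positive, with a median of 0.12 and 1 (higher) with an unadjusted p under 0.05, and Rrm2, a subunit of ribonucleotide reductase, read 7.54, 7.37 and 8.40 in OVE-D6 and 7.16 to 7.40 in D6. OVE-D6 replicate 3, the array with adrenal transcripts, was the highest OVE-D6 array in all 3 lists, at 0.33, 0.44 and 0.42 above the D6 mean. Without OVE-D6 replicate 3, the median of extracellular matrix genes was 0.02, the median of tubular injury markers 0.10 and the median of cell cycle genes 0.04. The smooth muscle gene Acta2, also a myofibroblast marker, differed by 0.83 ± 0.19 (adjusted p = 0.108) and Cnn1, a smooth muscle contractile gene, by 1.15 ± 0.26 (adjusted p = 0.110). In OVE against FVB the medians of the matrix, injury and cell cycle lists were 0.60, 0.68 and 0.68.

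**Figure D3:**
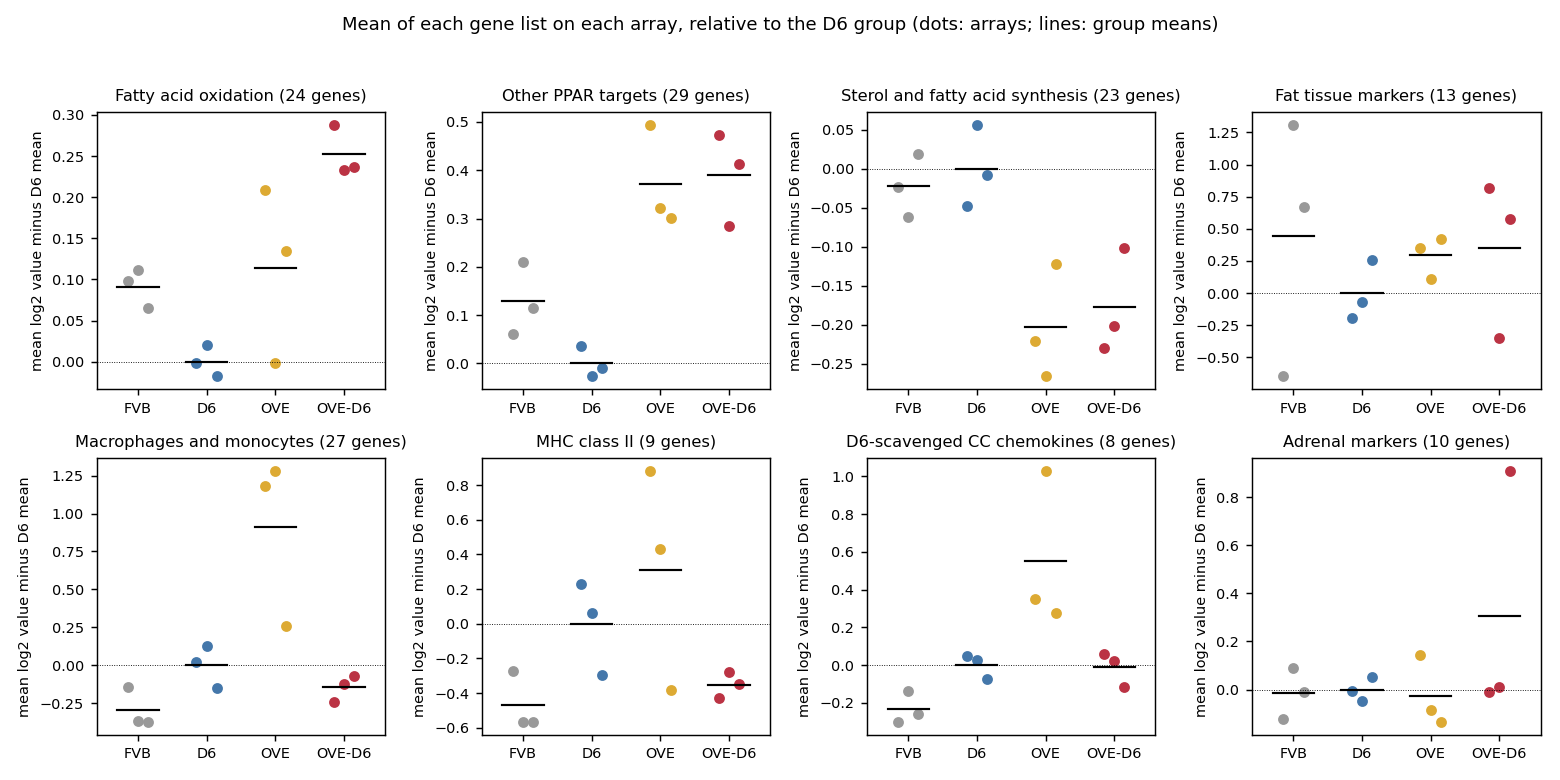
Average log2 value of 8 gene lists on each of the 12 arrays, relative to the mean of the 3 D6 arrays, each point 1 mouse. The fatty acid oxidation average was 0.23 to 0.29 on the OVE-D6 arrays, while the macrophage average of OVE-D6 stayed near or below D6 and that of OVE lay above it.

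The genes called in the knockouts were compared with the diabetes effect in mice with intact D6. The means in that comparison come from other arrays, but both were tested with 1 variance per gene fitted over all 12 arrays, so the calls are not independent. In OVE against FVB, 1200 genes passed, 808 upward and 392 downward. Of the 47 genes called in the knockouts, 40 were among them, all in the same direction, which is 85.1% of the 47 and 3.33% of the 1200. The median size of the difference over the 47 was 0.78 in knockouts and 0.81 with intact D6. It was larger in knockouts for 29 genes and not larger for 18. Since the 47 were chosen on the knockout arrays, the size of their difference there is partly fixed by the choice. For Slc38a3 the differences were 1.18 and 1.15, for Casr -0.87 and -0.88, and for Xpnpep2 0.86 and 0.86. Of the 808 genes that rose with intact D6, 618 had the same sign in knockouts, but the median went from 0.63 to 0.14. Of the 392 that fell, 344 had the same sign, with medians of -0.42 and -0.18. Since those genes were chosen on the OVE arrays, their larger difference there is partly fixed by the choice.

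The 7 genes that passed in the knockouts and not in OVE against FVB were Serpina6, Mogat1, Decr1, Cyp4a31, Chl1, Padi2 and Sec14l3. The difference between genotypes was tested by the interaction, (OVE-D6 minus D6) minus (OVE minus FVB), and it passed for none of the 7, with limma adjusted p between 0.318 and 0.606. Decr1 differed by 0.49 in knockouts and by 0.19 with intact D6 (interaction 0.30, adjusted p = 0.381). Padi2 differed by -0.58 and by -0.19 (interaction -0.39, adjusted p = 0.318). Its means were 7.16 in FVB and 7.54 in D6, and 6.97 in OVE and 6.95 in OVE-D6. For Cyp4a31 the means were 12.76 in FVB and 12.5 in D6, and 12.9 in OVE and 12.95 in OVE-D6. In these genes the genotypes lay further apart without diabetes than with it. For Decr1 the means were 10.31 in FVB and 10.12 in D6, and 10.49 in OVE and 10.61 in OVE-D6. Cyp4a12a, called in both, differed by 2.47 and by 1.17 (interaction 1.30, adjusted p = 0.328).

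Over all genes the limma interaction called 0 (0%) at an adjusted p of 0.05, and 1647 (9.99%) had an unadjusted p under 0.05, with 611 above 0 (3.71%) and 1036 below (6.29%). The smallest p were those of Cd14, Csf1, C5ar1, Ccr2 and Lyz2, all myeloid genes or myeloid growth factors with interactions below 0 (adjusted p = 0.173 for each). Cd14, the endotoxin co-receptor, read 6.99, 6.79 and 6.88 in D6 and 6.78, 6.75 and 7.09 in OVE-D6, against 6.98, 6.90 and 6.61 in FVB and 8.06, 8.33 and 7.88 in OVE. OVE alone stood apart. Ccr2, the receptor for Ccl2, had an interaction of -2.17 and Lyz2 one of -2.76. Among the 27 macrophage markers 27 had an interaction below 0, and 25 had an unadjusted p under 0.05. The count of 0 rested on OVE replicate 3, whose macrophage marker average lay at 0.26 above the D6 mean, beside 1.18 and 1.28 for the other OVE arrays. Without it 377 genes passed (2.29%), 24 higher and 353 lower. Those 377 held 23 of the 27 macrophage markers and 5 of the 9 MHC class II genes, and of the 47 called genes they held Sulf2 alone. OVE replicate 3 was the lowest OVE array in the macrophage and the MHC class II averages. Leaving it out raises the OVE mean and narrows the OVE spread in both lists, so their passing is partly fixed by the omission. Without D6 replicate 1, 1 gene passed, the ribosomal protein gene Rps14, named here after its values were seen (interaction -1.26, limma adjusted p = 0.0386). Leaving out any 1 of the other 10 arrays gave 0.

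The count of called genes depended on single arrays. Without D6 replicate 1, 2 or 3 it was 22, 18 or 17, and without OVE-D6 replicate 1, 2 or 3 it was 19, 25 or 17. Without OVE replicate 3, which enters the comparison through the shared variance alone, it was 74. Across 23 alternatives 12 of the 47 genes passed wherever they could be tested: Cyp4a12a, Cyp4a12b, Aldh1a7, Mtarc1, Slc38a3, Reep6, Acsf2, Xpnpep2, Mirt2, Cpne7, Casr and Tprg. Tprg could be tested in 22 of the 23. None of the 47 changed direction in any of these alternatives.

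**Figure D4:**
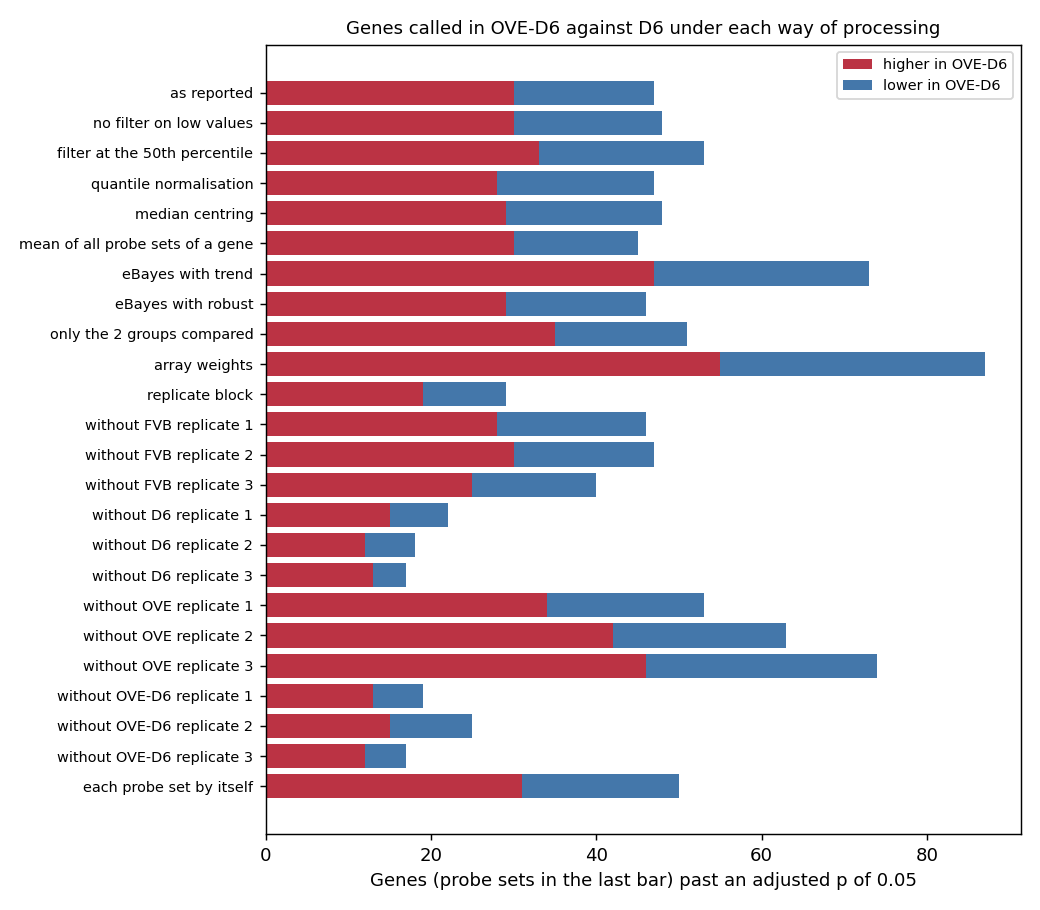
Number of genes past an adjusted p of 0.05 in OVE-D6 against D6, higher (red) and lower (blue) in OVE-D6, as reported and under each alternative way of processing. The count was 47 as reported and ran from 17, without D6 replicate 3 or OVE-D6 replicate 3, to 87 with array weights.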

How the data were processed

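RNA of whole kidney from 1 mouse per array was labelled and hybridised to whole-transcript mouse arrays, per the labels' protocols. The values that were deposited are log2 signals summarised per probe set, and array medians lay between 6.84 and 6.93. How they were summarised and normalised is not given in the sources used here. They were taken as normalised, with no added scaling. Symbols were updated through the gene table of GRCm38.p6, by Entrez identifier for 21698 probe sets and by accession for 3, with 88 platform symbols kept. 1621 probe sets had several symbols, 12146 were not named here, and neither kind was used. For 1001 genes with several probe sets, the one with the highest mean stood for the gene. All per-sample columns were mapped.

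Genes were tested with limma 3.58.1 under R 4.3.3 (lmFit with 1 mean per group over the 12 arrays, then contrasts and eBayes, Benjamini-Hochberg over 16480 genes, two-sided). P-values rest on 1 variance per gene, taken from the spread between mice within groups over the 12 arrays and drawn by eBayes toward that of other genes. With 3 mice per group, the number of arrays limits the precision. Differences and SE are on the log2 scale. Called, rose and fell mean an adjusted p under 0.05. List averages are means of log2 values less the mean of the 3 D6 arrays. Lists held 1 to 43 tested genes and overlapped, and some genes stand in several.

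The comparison, the 56 gene lists and the tests were chosen with earlier results of these data known. Genes were named by rule: Ackr2, the 15 largest rises and 15 largest falls past the threshold with groups that did not overlap (predicted and unnamed genes left out), list members past the threshold (up to 4) or nearest to it (up to 3), members of the D6-scavenged chemokines, the 5 smallest interaction p, and marker genes of sex and other tissues as values. Pigz, Mirt2, Bco1, Eda2r, Epha6, Ddias, Cpne7, Ftcd, Mogat1, Sulf2, Slc22a17, E030011O05Rik and BC040756 were named after their values were seen where the rule did not reach them, to account for all called genes.

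Alternatives changed the filter, normalisation, probe set per gene, variance model and arrays in the fit, used a replicate block, and left out the 12 arrays in turn. A pseudocount has no place on log2 values and was not varied. The scripts were tested on simulated data. Tables and plots used Python 3.11.15 with pandas 2.3.3 and, for figures, matplotlib 3.10.9.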

Additional observations from a re-analysis of the deposited data

How the results depend on the processing

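For OVE-D6 against D6, 47 genes were called as reported, 73 with a mean-variance trend in eBayes and 87 with array weights, and leaving out 1 array gave between 17 and 74. The replicate block (the number in the titles as a fixed effect) gave 29 genes, 28 of them among the 47. Nothing in the labels says that the numbers pair the mice. Deviations from the group mean correlated across genes at -0.0177, 0.0703 and 0.0102 for same-numbered D6 and OVE-D6 arrays. For differently numbered arrays the range was -0.0673 to 0.0592. Deviations within a group cancel out, so these values cannot settle whether same-numbered mice shared a litter or day. The cause of the lower count was not tested. The other alternatives gave 45 to 53 genes. The interaction, which cannot be fitted with the 2 groups alone, called 0 genes in each of the other settings, except 1 without D6 replicate 1 and 377 without OVE replicate 3, so leaving out 1 array gave 0 to 377. Of 1072 values of the called genes over the alternatives, 831 kept direction and call, 241 kept direction and lost the call, and 0 turned direction. Of the list medians over the alternatives, 1184 moved by less than the spread between replicates and 46 by more.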

Other observations

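Among gene groups not described above, antioxidant genes leaned upward and protein-folding genes downward without a call. Over all tested genes 47.6% had a positive difference. Of 26 tested NRF2 targets and antioxidants 21 had a positive difference, and Nqo1, a quinone reductase, differed by 0.56 ± 0.16 (limma adjusted p = 0.186). Hmox1, heme oxygenase 1, read 9.0, 11.03 and 9.02 in OVE-D6 and 8.27 to 8.48 in D6, so that OVE-D6 replicate 2 alone was far above the others (1.34 ± 0.50, adjusted p = 0.367). Of 26 tested genes of the unfolded protein response 7 had a positive difference, and Sdf2l1, an endoplasmic reticulum chaperone partner, differed by -0.85 ± 0.26 (adjusted p = 0.257). Slc22a26, an organic anion transporter gene, read 8.62, 8.81 and 9.0 in D6 and 7.22, 8.03 and 6.72 in OVE-D6 and did not pass (-1.49 ± 0.30, adjusted p = 0.0703).

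Of 16 tested podocyte markers 4 had a positive difference, beside 47.6% of all tested genes. Nphs1, nephrin of the filtration slit, read 8.35, 8.59 and 8.35 in D6 and 8.27, 7.99 and 7.86 in OVE-D6 (-0.39 ± 0.13, limma adjusted p = 0.308). Esm1, an endothelial proteoglycan gene, read 8.61, 8.58 and 8.55 in D6 and 7.79, 8.03 and 7.31 in OVE-D6 (-0.87 ± 0.25, adjusted p = 0.226). For both genes every diabetic knockout lay below every non-diabetic one. Agt, angiotensinogen, read 9.92, 9.90 and 10.41 in D6 and 10.45, 10.74 and 10.90 in OVE-D6 (0.62 ± 0.20, adjusted p = 0.268).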
